A study of Mus musculus with 20 samples.

Results

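The genes described here are 37 components of nucleotide excision repair and interstrand crosslink repair, measured in mouse liver on Affymetrix expression arrays. A probe set, a group of short probes read as a single value, was taken as a member where the array annotation gave it a single gene symbol and that symbol was on the list. By this rule 34 of the 37 genes were represented, by 69 of the 45037 probe sets that were not array controls. Ercc6, Gtf2h1 and Gtf2h2 were not analysed here. Of the 34 genes, 14 had 1 probe set, 10 had 2, 6 had 3, 3 had 4 and Lig3 had 5.

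The study asked how dietary restriction acts in progeroid mice with defective DNA repair, and compared 4 groups of 5 mice each. The progeroid mice were Ercc1Δ/-: they carried the Δ allele of Ercc1, which encodes a shortened protein, over a null allele in every cell of the body. The wild type mice were littermates, and all animals were F1 C57BL6J/FVB hybrids kept on AIN93G synthetic pellets and killed for liver RNA at 11 weeks of age. In each genotype 1 group ate freely (control diet) and 1 was restricted (restricted diet). Restriction began at 7 weeks with 10% less food and deepened weekly to 30% less at 9 weeks. Wild type mice on free feeding ate 3 g per day on average, and 2.1 g per day was their 30% restriction; an amount of 1.6 g per day is also given, without a genotype. The sources used here do not give the sex of the animals.

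Values are log2 units, so that a difference of 1 is a doubling. They compare groups within a probe set, and no level is compared between genes. A difference was called where limma's moderated test, fitted over the 45037 probe sets, gave a Benjamini-Hochberg adjusted p under 0.05. The liver label held: the hepatocyte markers (albumin and 6 others on that list) averaged between 13.28 and 13.54 in every animal, and the 20 arrays correlated with each other at 0.979 to 0.996. Many members were dim. Of the 69 probe sets 37 had a mean of at least 5 over the 20 arrays, and 41 had a mean under 5.89, the brightest of the 23 probe sets that the array design holds for nonspecific background (their median was 2.89). In whole liver, a change in the number of cells of a type and a change of RNA per cell cannot be told apart.

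Nucleotide excision repair removes bulky lesions such as those left by ultraviolet light. Damage is found across the genome by the XPC and UV-DDB complexes, or by a stalled RNA polymerase with the help of the Cockayne syndrome proteins. TFIIH then opens the helix, XPA and the single-strand binding protein RPA hold the opened site, the nucleases XPG (Ercc5) and ERCC1-XPF (Ercc1 and Ercc4) cut on either side, and the gap is filled and sealed. ERCC1-XPF also takes part in unhooking crosslinks between the strands, a job shared with the SLX4 scaffold, the Fanconi anaemia proteins, translesion polymerases and homologous recombination. In liver, loss of ERCC1 is known for enlarged polyploid nuclei and early functional decline.

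Ercc1, the gene altered in these mice, had 4 probe sets, and they fell into 2 kinds. The signal of 2 probe sets was lower in every progeroid liver than in every wild type liver on the same diet. The other 2 gave about the same value in all 4 groups. On 1417328_PM_at, the values on control diet were 5.12, 4.69, 4.75, 5.32 and 4.98 in wild type and 3.63, 3.24, 3.40, 3.18 and 3.40 in progeroid mice. On restricted diet they were 4.82, 4.62, 4.98, 4.60 and 4.66 in wild type and 3.47, 3.26, 3.42, 3.38 and 3.31 in progeroid mice. The wild type and progeroid values did not overlap on either diet, and lay more than 1 log2 unit apart. The genotype difference was -1.60 (SE 0.11, adjusted p = 1.55e-08) on control diet and -1.37 (SE 0.11, adjusted p = 9.62e-08) on restricted diet. The values of both genotypes lay within the range of the nonspecific background probe sets (2.40 to 5.89), and the progeroid values lay lower in it. There the size of a fall and any further change with diet cannot be read closely.

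On 1437447_PM_s_at, the Ercc1 probe set with the highest mean, the values on control diet were 6.51, 6.60, 6.53, 6.62 and 6.44 in wild type and 5.31, 5.27, 5.14, 5.55 and 5.24 in progeroid mice. On restricted diet they were 6.36, 6.04, 6.09, 6.14 and 6.13 in wild type and 5.00, 4.49, 5.08, 4.71 and 4.71 in progeroid mice. Again no progeroid value reached a wild type value on the same diet, and within each genotype every restricted mouse was below every control mouse. The genotype difference was -1.24 (SE 0.10, adjusted p = 1.25e-07) on control diet and -1.35 (SE 0.10, adjusted p = 2.14e-08) on restricted diet. This probe set also fell with restriction, by 0.39 in wild type (SE 0.10, adjusted p = 0.00836) and by 0.51 in progeroid mice (SE 0.10, adjusted p = 0.0027). Its progeroid values, too, lay within the range of the nonspecific background probe sets (2.40 to 5.89), so that the size of the progeroid fall cannot be read closely. On 1417328_PM_at the diet difference was -0.24 (SE 0.11, adjusted p = 0.149) in wild type and -0.00 (SE 0.11, adjusted p = 0.991) in progeroid mice, so that the fall with diet was called on 1 of the 2 responsive probe sets.

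The 2 flat probe sets gave no call in any comparison. All their values lay within the range of the nonspecific background probe sets (2.40 to 5.89). Whether these 2 detect Ercc1 RNA at all can therefore not be read from the values. On 1441838_PM_at the values on control diet were 4.86, 4.81, 4.99, 4.68 and 4.79 in wild type and 5.01, 4.87, 4.79, 4.78 and 4.78 in progeroid mice, and on restricted diet they were 4.80, 4.68, 4.93, 4.88 and 4.84 in wild type and 4.78, 4.99, 4.73, 4.81 and 4.90 in progeroid mice. The 4 groups overlapped throughout, and the 95% interval of the genotype difference on control diet ran from -0.13 to 0.17. On 1445266_PM_at the values were 4.72, 4.61, 4.54, 4.63 and 4.43 in wild type and 4.68, 4.37, 4.62, 4.65 and 4.44 in progeroid mice on control diet, and 4.74, 4.60, 4.75, 4.53 and 4.63 in wild type and 4.48, 4.70, 4.56, 4.36 and 4.61 in progeroid mice on restricted diet. These groups overlapped too, with an interval of -0.20 to 0.13. The position of the 4 probe sets on the Ercc1 transcript was not determined here, nor whether any of them covers the altered sequence.

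**Figure D1:**
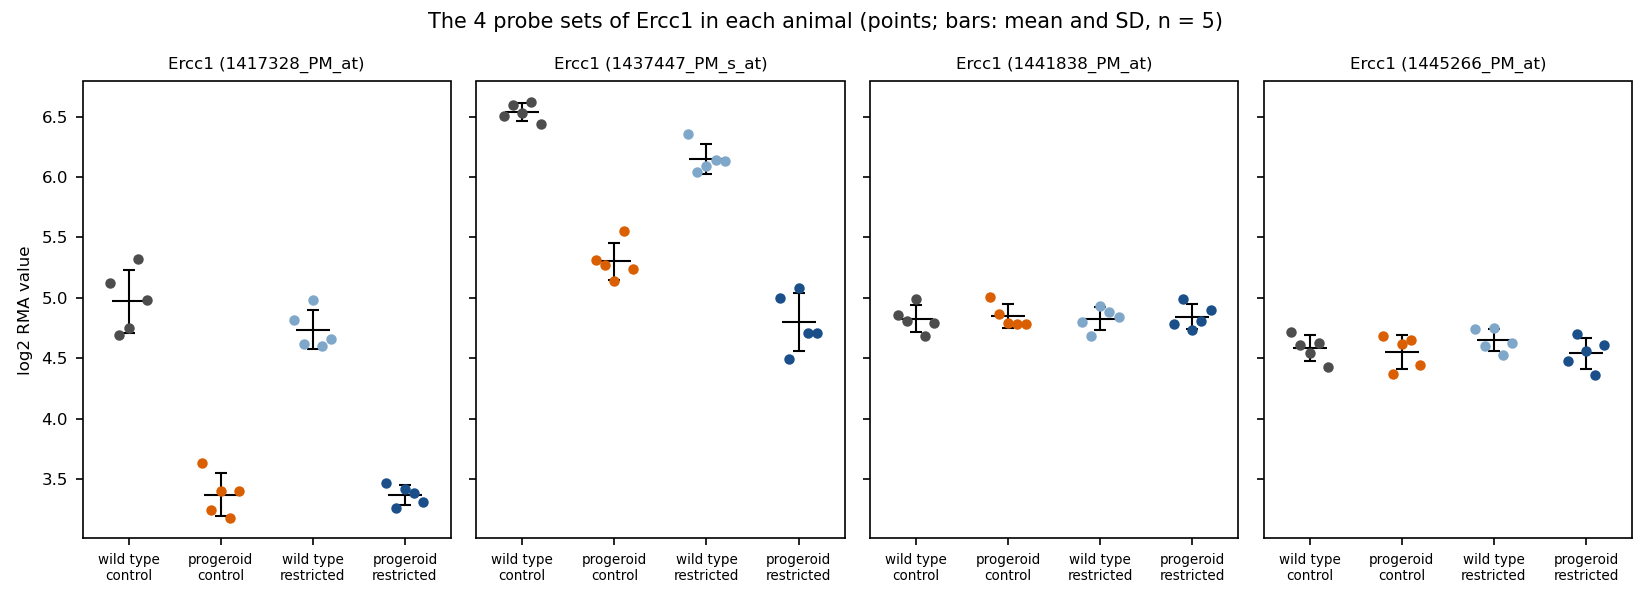
Log2 value of the 4 Ercc1 probe sets (one panel each, shared vertical axis) in each of the 20 mice by group; points are animals, horizontal bars the group mean and vertical bars the SD of 5 mice. On the first 2 probe sets the progeroid groups lie below the wild type groups without overlap (means 3.37 against 4.97 and 5.30 against 6.54 on control diet), while the last 2 stay between 4.36 and 5.01 in every animal.

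Apart from Ercc1, the probe sets called by genotype on both diets were higher in progeroid liver: Ercc3, both probe sets of Rpa1 and 1 probe set of Atr. On control diet 6 of the 69 probe sets were called higher, against 3.98% of all probe sets on the array, and 3 lower, against 2.96%. On restricted diet 9 were called higher (7.07% of all probe sets) and 5 lower (4.42%). The members' 6, 3, 9 and 5 were 8.7%, 4.35%, 13% and 7.25% of 69. The 2 genotype comparisons use different animals: 4 probe sets called higher were shared (66.7% of the control diet calls and 44.4% of the restricted diet calls), and 2 called lower were shared, both of Ercc1. The sharing of genotype calls over all probe sets was not counted, so these shares are not read as particular to the members. The median difference over the members was 0.012 on control and 0.029 on restricted diet, beside -0.013 and -0.020 over all probe sets.

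Ercc3 (XPB) is the TFIIH translocase that starts the opening of DNA around a lesion. On control diet its values were 6.94, 6.90, 7.07, 7.11 and 7.08 in wild type and 7.21, 7.70, 7.55, 7.45 and 7.48 in progeroid mice. On restricted diet they were 7.05, 6.99, 6.80, 6.94 and 6.81 in wild type and 8.12, 7.68, 7.72, 7.62 and 7.62 in progeroid mice. Every progeroid liver was above every wild type liver on either diet, and 1 restricted progeroid mouse, animal 362, was well above the other 4. The difference was 0.46 (SE 0.10, adjusted p = 0.00525) on control diet and 0.83 (SE 0.10, adjusted p = 1.06e-05), or 1.78-fold, on restricted diet. Leaving out any 1 animal kept it between 0.40 and 0.53 on control diet and between 0.74 and 0.87 on restricted diet, with both calls held. The other TFIIH members moved less. Ercc2 (XPD), the helicase that unwinds and checks the damaged strand, was lower in progeroid than in wild type mice on restricted diet on 1460727_PM_at (-0.26, SE 0.08, adjusted p = 0.0419). On that probe set the genotype difference on control diet was similar without passing the test (-0.23, SE 0.08, adjusted p = 0.0843). The dimmer 1442253_PM_at of Ercc2 was not called (-0.10, SE 0.08, adjusted p = 0.489, on control and -0.05, SE 0.08, adjusted p = 0.728, on restricted diet). Gtf2h4 (p52), which anchors and stimulates XPB, was higher in progeroid than in wild type mice on restricted diet on 1448585_PM_at (0.26, SE 0.08, adjusted p = 0.0409). Gtf2h3 (p34), a structural subunit, was not called by genotype (0.02, SE 0.08, adjusted p = 0.908, on control and 0.18, SE 0.08, adjusted p = 0.174, on restricted diet).

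Rpa1, the large DNA-binding subunit of RPA, coats the undamaged strand and serves replication as well as repair. On 1423293_PM_at the values on control diet were 7.82, 7.77, 7.97, 7.78 and 7.94 in wild type and 8.26, 8.46, 8.32, 8.36 and 8.45 in progeroid mice, and on restricted diet they were 7.94, 7.89, 8.12, 8.0 and 7.96 in wild type and 8.16, 8.29, 8.50, 8.52 and 8.30 in progeroid mice. The brighter 1437309_PM_a_at gave 8.62, 8.82, 8.99, 8.82 and 8.98 in wild type and 9.25, 9.54, 9.29, 9.33 and 9.50 in progeroid mice on control diet, and 9.00, 8.87, 9.24, 9.08 and 8.99 in wild type and 9.24, 9.38, 9.37, 9.52 and 9.27 in progeroid mice on restricted diet. On both probe sets and both diets the progeroid and wild type values did not overlap, though on restricted diet the lowest progeroid and highest wild type values of the second met at 9.24 after rounding. The differences on control diet were 0.51 (SE 0.07, adjusted p = 1.13e-04) and 0.54 (SE 0.08, adjusted p = 3.66e-04), and those on restricted diet 0.37 (SE 0.07, adjusted p = 0.00158) and 0.32 (SE 0.08, adjusted p = 0.0163). Rpa2, the middle subunit, and Rpa3, the small subunit, were not called by genotype. Their differences on restricted diet were 0.30 (SE 0.12, adjusted p = 0.106) on 1416433_PM_at of Rpa2 and 0.22 (SE 0.11, adjusted p = 0.209) for Rpa3. Rpa2 on 1454011_PM_a_at gave 0.09 (SE 0.13, adjusted p = 0.739). The restricted diet call of 1437309_PM_a_at was lost without animal 368 (adjusted p = 0.0551).

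Xpa, the scaffold that verifies damage and positions the nucleases, was called higher in progeroid than in wild type liver on restricted diet, on 1 of its 3 probe sets. The values there were 7.88, 7.87, 7.64, 7.22 and 7.72 in wild type and 8.0, 8.18, 8.20, 7.90 and 8.18 in progeroid mice on 1460725_PM_at. On control diet they were 7.64, 7.56, 7.59, 7.35 and 7.80 in wild type and 7.33, 7.58, 7.58, 7.73 and 7.24 in progeroid mice. The restricted progeroid mice lay above the other groups, while the control groups overlapped. The genotype difference was 0.43 (SE 0.12, adjusted p = 0.0221) on restricted diet and -0.10 (SE 0.12, adjusted p = 0.707) on control diet. Among damage sensors, Xpc was called higher in progeroid than in wild type liver on restricted diet (0.37, SE 0.12, adjusted p = 0.0497). Its genotype difference on control diet was 0.01. Rad23b (a partner of XPC), Cetn2 (centrin, a further partner), Ddb1 and Ddb2 were called by genotype on no probe set.

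Atr is the kinase that answers to RPA-coated single strands at stalled forks. On 1427197_PM_at the values on control diet were 6.36, 6.29, 6.53, 6.48 and 6.77 in wild type and 6.86, 6.91, 6.57, 6.75 and 7.18 in progeroid mice, and on restricted diet 6.95, 7.19, 7.00, 6.94 and 7.01 in wild type and 7.40, 7.07, 7.17, 7.07 and 7.06 in progeroid mice. On control diet the highest wild type mouse, animal 405, lay within the progeroid range, and on restricted diet the groups overlapped as well. The genotype difference was 0.37 (SE 0.10, adjusted p = 0.0343) on control diet and 0.13 (SE 0.10, adjusted p = 0.467) on restricted diet. The dimmer 1438921_PM_at showed a larger difference, from 3.38 ± 0.17 (SD, n = 5) in wild type to 4.40 ± 0.53 in progeroid mice on control diet and from 3.98 ± 0.29 to 4.74 ± 0.42 on restricted diet, or 1.02 (SE 0.22, adjusted p = 0.00544) and 0.76 (SE 0.22, adjusted p = 0.0254). All values of 1438921_PM_at lay within the range of the nonspecific background probe sets (2.40 to 5.89). The size of its difference can therefore not be read closely. The third Atr probe set, 1445091_PM_at, was not called (0.59, SE 0.19, adjusted p = 0.0638, and 0.44, SE 0.19, adjusted p = 0.151). Atm, the kinase for double-strand breaks, was not called on either of its 2 probe sets.

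**Figure D2:**
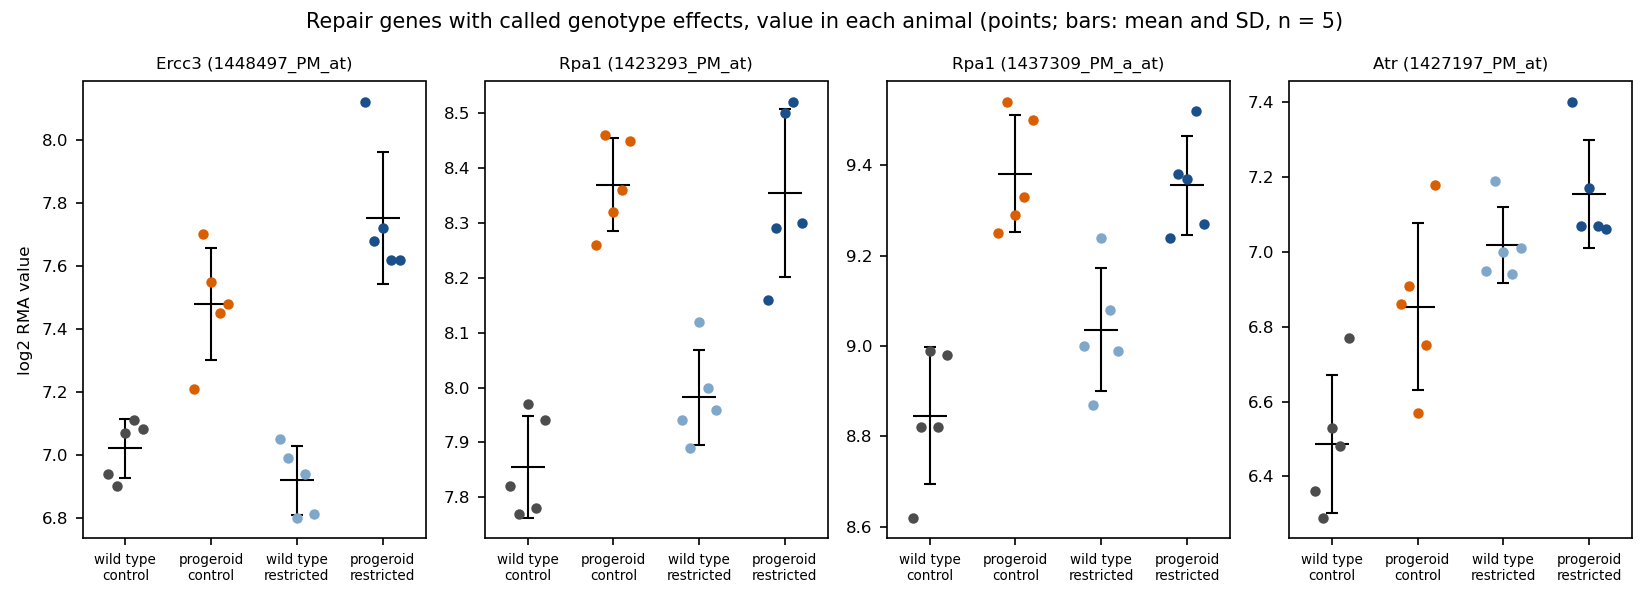
Log2 value of Ercc3, the 2 Rpa1 probe sets and Atr in each of the 20 mice by group (one panel each, separate vertical axes that do not start at 0); points are animals, bars the mean and SD of 5 mice. Ercc3 and Rpa1 are higher in progeroid than in wild type mice on both diets without overlap, and Atr is higher in progeroid mice on control diet with overlap.

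The remaining genotype calls were on 1 diet each. Lig1, the ligase of replication and long patches, was higher in progeroid than in wild type liver on restricted diet, at 6.00 ± 0.29 against 5.42 ± 0.36 (SD, n = 5; 0.58, SE 0.16, adjusted p = 0.0169). Ercc4 (XPF), the catalytic partner of ERCC1, was called higher in progeroid liver on restricted diet on 1448984_PM_at alone of its 4 probe sets (0.29, SE 0.09, adjusted p = 0.0436). Brca1 was higher in progeroid liver on control diet on 1 of 4 probe sets (0.62, SE 0.19, adjusted p = 0.0492). Lower calls were Fanci on 1425941_PM_a_at on control diet (-0.23, SE 0.07, adjusted p = 0.0425), and on restricted diet Fancd2 on 1430916_PM_at (-0.26, SE 0.07, adjusted p = 0.0122) and Ercc8 on 1427194_PM_a_at (-0.27, SE 0.08, adjusted p = 0.0276). Fanci and Fancd2 form the clamp at the centre of the Fanconi pathway, and Ercc8 (CSA) belongs to the ubiquitin ligase that acts at stalled polymerases. The Fanci and Fancd2 probe sets were dim in every group, at group means of 3.03 to 3.41. Ercc5, Slx4, Mus81, Eme1, Lig3, Xrcc1, Fanca, Fancc, Fancl, Brca2, Rev1 and Rev3l were called by genotype on no probe set.

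Several of these calls were lost when 1 mouse was left out or a covariate was added. A fit without 1 mouse also has fewer animals, so a lost call does not by itself mark that mouse as unusual. Over these fits the estimate ran from 0.31 to 0.42 for Xpc, from 0.24 to 0.34 for Ercc4 and from 0.46 to 0.75 for Brca1. Leaving out 1 mouse at a time, Xpa lost its restricted diet call without animal 365, 366, 369 or 424 (adjusted p up to 0.0653), Lig1 without animal 422 or 424 (adjusted p up to 0.0539), Atr on 1438921_PM_at without animal 362, 368, 369, 424 or 425 (adjusted p up to 0.0739) and Ercc8 without animal 362, 369, 423, 424 or 425 (adjusted p up to 0.0795). Gtf2h4 lost its call without animal 365, 366, 369, 422, 423, 424 or 425 (adjusted p up to 0.11), Xpc without animal 362, 365, 366, 368, 369, 422, 424 or 425 (adjusted p up to 0.142), Ercc2 without animal 365, 366, 368, 369, 421, 423, 424 or 425 (adjusted p up to 0.111) and Ercc4 without animal 362, 365, 366, 369, 421, 422, 424 or 425 (adjusted p up to 0.129). On control diet Brca1 lost its call without animal 321, 325, 326, 327, 401, 402, 403 or 405 (adjusted p up to 0.132), Fanci without animal 321, 325, 326, 327, 401, 403, 404 or 405 (adjusted p up to 0.103) and Atr on 1427197_PM_at without animal 321, 323, 327, 401, 402 or 404 (adjusted p up to 0.0964). The 9 higher calls on restricted diet thus became 5 without progeroid animal 366, 4 without progeroid animal 369, 5 without wild type animal 422 and 3 without wild type animal 424, and the 5 lower calls became 3 without progeroid animal 369 or without wild type animal 423, 424 or 425. With the 3' to 5' difference of the Gapdh control probe sets as a covariate, 3 of the 69 probe sets were called higher on control diet instead of 6: the Atr calls (adjusted p = 0.0546 on 1438921_PM_at and 0.174 on 1427197_PM_at) and the Brca1 call (adjusted p = 0.167) were lost. That difference, a sign of RNA integrity, was 0.93 ± 0.28 in progeroid and 0.66 ± 0.06 in wild type mice on control diet (SD, n = 5 each; exact two-sided permutation p = 0.0476, adjusted 0.116). Centring each array on its median gave 5 higher and 5 lower calls on control diet.

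Markers of other cells moved with genotype as well. The mean over the neutrophil and monocyte markers (4 of 7 listed genes were measured) was 4.64 to 4.84 in progeroid and 3.81 to 4.19 in wild type mice on control diet, with 2 of 7 probe sets called higher, and 4.35 to 4.97 against 3.82 to 4.10 on restricted diet. Kupffer cell and macrophage markers (8 of 8 genes) averaged 7.90 to 8.66 in progeroid and 7.05 to 7.66 in wild type mice on restricted diet, with 6 of 8 probe sets called higher, and 7.70 to 8.39 against 7.48 to 7.93 on control diet. The DNA replication list (16 of 16 genes, among them those of the Mcm helicase) averaged 5.79 to 5.90 against 5.43 to 5.63 on restricted diet, with 8 of 29 probe sets higher and 2 lower, and 5.51 to 5.91 against 5.23 to 5.52 on control diet. The list of cycling-cell genes (9 of 10) averaged 3.76 to 4.17 against 3.48 to 3.60 on restricted diet, with 1 of 14 probe sets higher. Each of these 4 restricted diet differences reached the smallest p that an exact two-sided permutation test of 5 against 5 allows (p = 0.00794, 0.0349 after adjustment over 44 comparisons), as did stellate cell markers on control diet (7.47 to 7.73 against 7.03 to 7.35). The hepatocyte list was lower by 0.18 on control and by 0.12 on restricted diet, with the same exact p. Lymphocyte markers stayed at 3.80 to 4.09 in every animal. Cholangiocyte markers (adjusted 0.0537 on control and 0.833 on restricted diet) and endothelial markers (0.646 and 0.243) did not pass the exact test by genotype. The part of these in the repair gene differences was not tested.

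With restriction Brca2, Rev1 and Ddb2 rose in both genotypes, as did 1 probe set each of Brca1, Fancc and Ercc4. Gtf2h3 and 1 probe set each of Ercc8, Lig3 and Ercc1 fell in both. In wild type mice 10 of 69 probe sets were called higher (9.88% of all probe sets) and 9 lower (9.09%). In progeroid mice 11 were called higher (4.81% of all probe sets) and 4 lower (3.44%). As shares of 69 these were 14.5%, 13%, 15.9% and 5.8%. Among probe sets with a mean of at least 5, 16.2% of the members and 13.3% of all probe sets were called by genotype on control diet and 29.7% against 21.2% on restricted diet. By diet 37.8% of the members and 35.3% of all probe sets were called in wild type, and 29.7% against 16.1% in progeroid mice. Under a mean of 5 the members and all probe sets gave 9.38% and 2.71% by genotype on control diet, 9.38% and 4.98% on restricted diet, and by diet 15.6% and 8.06% in wild type and 12.5% and 3.01% in progeroid mice. These last shares rest on 3 to 5 called members of 32, and the division by level was made after the values were seen. The 2 diet comparisons use different animals. They shared 7 higher calls, 70% of the wild type and 63.6% of the progeroid calls, and 4 lower calls, 44.4% and 100%. How often diet calls were shared over all probe sets was not counted. The sharing is therefore not read as particular to the repair genes.

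The upstream sequences of 4 genes that rose in both genotypes and of Ercc8, which fell in both, are shown, to set the letters before the start of the gene beside the values. They are the 250 bases before the annotated start of transcription in RefSeq (GRCm38.p6), 5′ to 3′ on the strand of the gene. A sequence was found for 29 of the 34 genes; Ercc3, Xpc, Ddb2, Fancd2 and Rev3l had no entry. Capitals mark a match, on either strand, to any of 5 motifs chosen after the values were seen: the E2F site (TTTCGCGC or TTTGGCGC), the E-box (CACGTG), the cyclic AMP response element (TGACGTCA), the ETS site (CCGGAAGT) and the CCAAT box (CCAAT). No motif contains another.
Brca1 at chr11:101551956-101552205, minus strand: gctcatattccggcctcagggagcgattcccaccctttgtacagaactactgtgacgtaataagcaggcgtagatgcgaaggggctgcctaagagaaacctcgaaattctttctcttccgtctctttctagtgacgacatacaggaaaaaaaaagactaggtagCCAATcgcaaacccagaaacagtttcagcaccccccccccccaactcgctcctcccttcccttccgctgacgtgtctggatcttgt
Brca2 at chr5:150522371-150522620, plus strand: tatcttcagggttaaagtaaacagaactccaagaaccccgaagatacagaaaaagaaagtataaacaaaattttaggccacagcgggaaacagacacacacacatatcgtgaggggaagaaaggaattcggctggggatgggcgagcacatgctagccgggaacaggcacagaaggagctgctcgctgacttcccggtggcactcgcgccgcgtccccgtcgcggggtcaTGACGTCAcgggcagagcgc
Rev1 at chr1:38129667-38129916, minus strand: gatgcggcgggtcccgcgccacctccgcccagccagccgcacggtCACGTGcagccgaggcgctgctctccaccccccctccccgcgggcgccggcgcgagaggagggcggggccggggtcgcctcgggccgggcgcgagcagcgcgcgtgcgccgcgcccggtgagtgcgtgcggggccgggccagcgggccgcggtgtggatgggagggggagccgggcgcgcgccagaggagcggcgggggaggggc
Fancc at chr13:63431746-63431995, minus strand: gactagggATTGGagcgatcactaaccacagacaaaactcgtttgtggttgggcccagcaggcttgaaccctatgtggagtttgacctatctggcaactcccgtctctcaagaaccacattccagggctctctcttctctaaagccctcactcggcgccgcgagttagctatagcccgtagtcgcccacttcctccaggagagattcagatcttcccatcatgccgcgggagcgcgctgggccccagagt
Ercc8 at chr13:108158488-108158737, plus strand: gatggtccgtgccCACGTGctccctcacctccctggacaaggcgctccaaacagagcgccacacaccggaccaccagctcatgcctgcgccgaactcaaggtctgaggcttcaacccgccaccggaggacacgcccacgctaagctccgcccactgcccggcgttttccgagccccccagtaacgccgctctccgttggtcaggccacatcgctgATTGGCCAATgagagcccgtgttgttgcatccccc

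No motif was found in all 4 of the genes shown that rose. Brca1 and Fancc held a CCAAT box that begins 86 and 242 bases before the start, Brca2 the cyclic AMP response element 20 bases before it, and Rev1 an E-box at 205 bases. Ercc8, which fell, held an E-box at 237 bases and 2 CCAAT boxes on opposite strands at 35 and 30 bases. Of the other genes called in both genotypes, Ercc4, which rose, held a CCAAT box at 191 bases and Lig3, which fell, an E-box at 21 bases. Gtf2h3 and Ercc1, which fell, held none of the motifs. Over 32851 promoters of the same length, 33.8% held a CCAAT box, 6.02% an E-box, 2.88% the ETS site, 1.55% the cyclic AMP response element and 0.654% an E2F site. Over the 31 promoters of the members the shares were 54.8%, 19.4%, 6.45%, 3.23% and 0%. A match describes letters, and no binding was measured.

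Brca1, which directs broken ends and stalled forks towards homologous recombination, had the largest diet difference of all members. On 1424629_PM_at the values in wild type mice were 4.03, 4.07, 4.21, 4.50 and 4.16 on control and 6.28, 5.68, 5.56, 5.79 and 5.69 on restricted diet. In progeroid mice they were 4.70, 4.29, 4.84, 4.78 and 5.47 on control and 5.84, 6.52, 5.99, 5.73 and 5.60 on restricted diet. Every restricted liver was above every control liver in both genotypes, and progeroid control animal 327 came closest to the restricted mice. The rise was 1.61 (SE 0.19, adjusted p = 5.34e-06), or 3.05-fold, in wild type and 1.12 (SE 0.19, adjusted p = 7.86e-04), or 2.17-fold, in progeroid mice. The control values of both genotypes lay within the range of the nonspecific background probe sets (2.40 to 5.89). The size of the rise can therefore not be read closely. The other 3 Brca1 probe sets were dim, with means of 3.22 to 3.95. Of these, 1424630_PM_a_at rose in progeroid mice (0.28, SE 0.07, adjusted p = 0.0181), and 1451417_PM_at stood at 0.23 and 0.25 without passing the test.

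Brca2, which acts in homologous recombination, gave 4.30, 4.22, 4.72, 3.94 and 4.65 on control and 5.39, 5.12, 5.40, 4.52 and 5.72 on restricted diet in wild type mice. In progeroid mice it gave 4.88, 4.85, 4.97, 4.77 and 4.70 on control and 5.64, 5.65, 5.34, 5.47 and 5.56 on restricted diet. The progeroid diet groups did not overlap, and in wild type 1 restricted mouse, animal 424, lay among the control values. Brca2 rose by 0.86 (SE 0.17, adjusted p = 0.00103) in wild type and by 0.70 (SE 0.17, adjusted p = 0.0118) in progeroid mice. All its values lay within the range of the nonspecific background probe sets (2.40 to 5.89), where the size of a rise cannot be read closely.

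Rev1, a translesion polymerase that also recruits polymerase zeta, gave 6.69, 6.78, 6.55, 6.56 and 6.24 on control and 7.73, 7.95, 7.62, 7.23 and 7.67 on restricted diet in wild type mice. In progeroid mice it gave 6.75, 6.48, 6.91, 6.58 and 7.61 on control and 7.45, 7.45, 7.66, 7.31 and 7.74 on restricted diet. The wild type groups were apart, while in progeroid mice control animal 327 lay among the restricted values. Rev1 rose by 1.08 (SE 0.17, adjusted p = 1.43e-04) in wild type and by 0.66 (SE 0.17, adjusted p = 0.0186) in progeroid mice. The progeroid call was lost without animal 323, 326 or 369 (adjusted p up to 0.0624). Rev3l, the catalytic subunit of polymerase zeta, was not called on any of its 3 probe sets, and its brightest stayed at group means of 8.33 to 8.50.

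Fancc, part of the Fanconi core complex that marks FANCD2 and FANCI with ubiquitin, gave 4.77, 4.29, 4.43, 4.61 and 4.68 on control and 5.16, 5.37, 4.90, 5.11 and 5.44 on restricted diet in wild type mice. In progeroid mice it gave 4.60, 4.63, 4.45, 4.33 and 4.61 on control and 5.56, 5.50, 5.51, 5.38 and 5.25 on restricted diet. No restricted value fell into the range of the controls in either genotype. All these values lay within the range of the nonspecific background probe sets (2.40 to 5.89), where the size of a rise cannot be read closely. On this probe set, 1450861_PM_at, Fancc rose by 0.64 (SE 0.10, adjusted p = 2.12e-04) in wild type and by 0.92 (SE 0.10, adjusted p = 1.94e-05) in progeroid mice. Its other probe set, the dimmer 1442265_PM_at, was not called (0.07, SE 0.12, adjusted p = 0.761, in wild type and -0.15, SE 0.12, adjusted p = 0.501, in progeroid mice). Fancl, the ubiquitin ligase of the same complex, fell in wild type mice from 8.02 ± 0.07 to 7.72 ± 0.11 (SD, n = 5; -0.30, SE 0.08, adjusted p = 0.0119), with -0.17 (SE 0.08, adjusted p = 0.214) in progeroid mice. Fanca, a scaffold of the complex, was not called. None of the 5 probe sets of Fancd2 and Fanci was called by diet.

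Ercc8, which helps to clear stalled RNA polymerase in transcription-coupled repair, had the largest called fall with diet of all members, on 1432249_PM_a_at. Its values in wild type mice were 5.41, 5.59, 5.43, 5.77 and 5.59 on control and 4.50, 4.25, 4.28, 4.25 and 4.52 on restricted diet. In progeroid mice they were 5.17, 5.46, 5.40, 5.41 and 5.04 on control and 4.45, 4.40, 4.38, 4.71 and 3.88 on restricted diet. The diet groups did not overlap in either genotype. Ercc8 fell by 1.20 in wild type (SE 0.12, adjusted p = 9.4e-07) and by 0.93 in progeroid mice (SE 0.12, adjusted p = 7.54e-05). All values of this probe set lay within the range of the nonspecific background probe sets (2.40 to 5.89). The size of the fall can therefore not be read closely. The call was on 1 of 3 probe sets. On 1427194_PM_a_at the diet difference was 0.00 (SE 0.08, adjusted p = 0.996) in wild type and -0.22 (SE 0.08, adjusted p = 0.0895) in progeroid mice, and 1454176_PM_at was dim, at group means of 3.18 to 3.24, and not called.

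Gtf2h3, the TFIIH subunit p34, also fell in both genotypes. It gave 6.89, 6.54, 6.77, 6.86 and 6.88 on control and 6.42, 6.23, 6.15, 6.27 and 6.30 on restricted diet in wild type mice, and 6.75, 6.97, 6.71, 6.75 and 6.88 on control and 6.24, 6.43, 6.62, 6.58 and 6.40 on restricted diet in progeroid mice. Every restricted mouse was below every control mouse of its genotype. Gtf2h3 fell by 0.51 in wild type (SE 0.08, adjusted p = 1.78e-04) and by 0.36 in progeroid mice (SE 0.08, adjusted p = 0.00926). Gtf2h4 fell on 1448585_PM_at in wild type mice (-0.26, SE 0.08, adjusted p = 0.0332) and stood at -0.01 in progeroid mice. Ercc2 and Ercc3 were not called by diet, with Ercc3 at -0.10 (SE 0.10, adjusted p = 0.535) in wild type and 0.28 (SE 0.10, adjusted p = 0.0867) in progeroid mice.

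Lig3, which seals breaks and gaps with XRCC1, fell in wild type mice on 3 of its 5 probe sets. On 1425865_PM_a_at the wild type values were 4.97, 5.12, 5.20, 5.30 and 5.08 on control and 4.87, 4.55, 4.63, 4.71 and 4.88 on restricted diet. In progeroid mice they were 4.88, 5.05, 4.89, 5.25 and 5.07 on control and 4.83, 4.71, 4.78, 5.12 and 4.84 on restricted diet. The wild type groups did not overlap and the progeroid groups did. All values of 1425865_PM_a_at lay within the range of the nonspecific background probe sets (2.40 to 5.89). There the size of a fall cannot be read closely. The differences in wild type were -0.41 (SE 0.09, adjusted p = 0.0031), -0.37 (SE 0.08, adjusted p = 0.00346) on 1423419_PM_at and -0.25 (SE 0.08, adjusted p = 0.03) on 1437198_PM_at. In progeroid mice 1437198_PM_at alone was called (-0.34, SE 0.08, adjusted p = 0.00922). Lig1 rose in progeroid mice, from 5.31 ± 0.18 to 6.00 ± 0.29 (SD, n = 5; 0.69, SE 0.16, adjusted p = 0.00812), with 0.35 (SE 0.16, adjusted p = 0.135) in wild type. Xrcc1 was not called (-0.20, SE 0.09, adjusted p = 0.127, in wild type and -0.02, SE 0.09, adjusted p = 0.949, in progeroid mice).

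**Figure D3:**
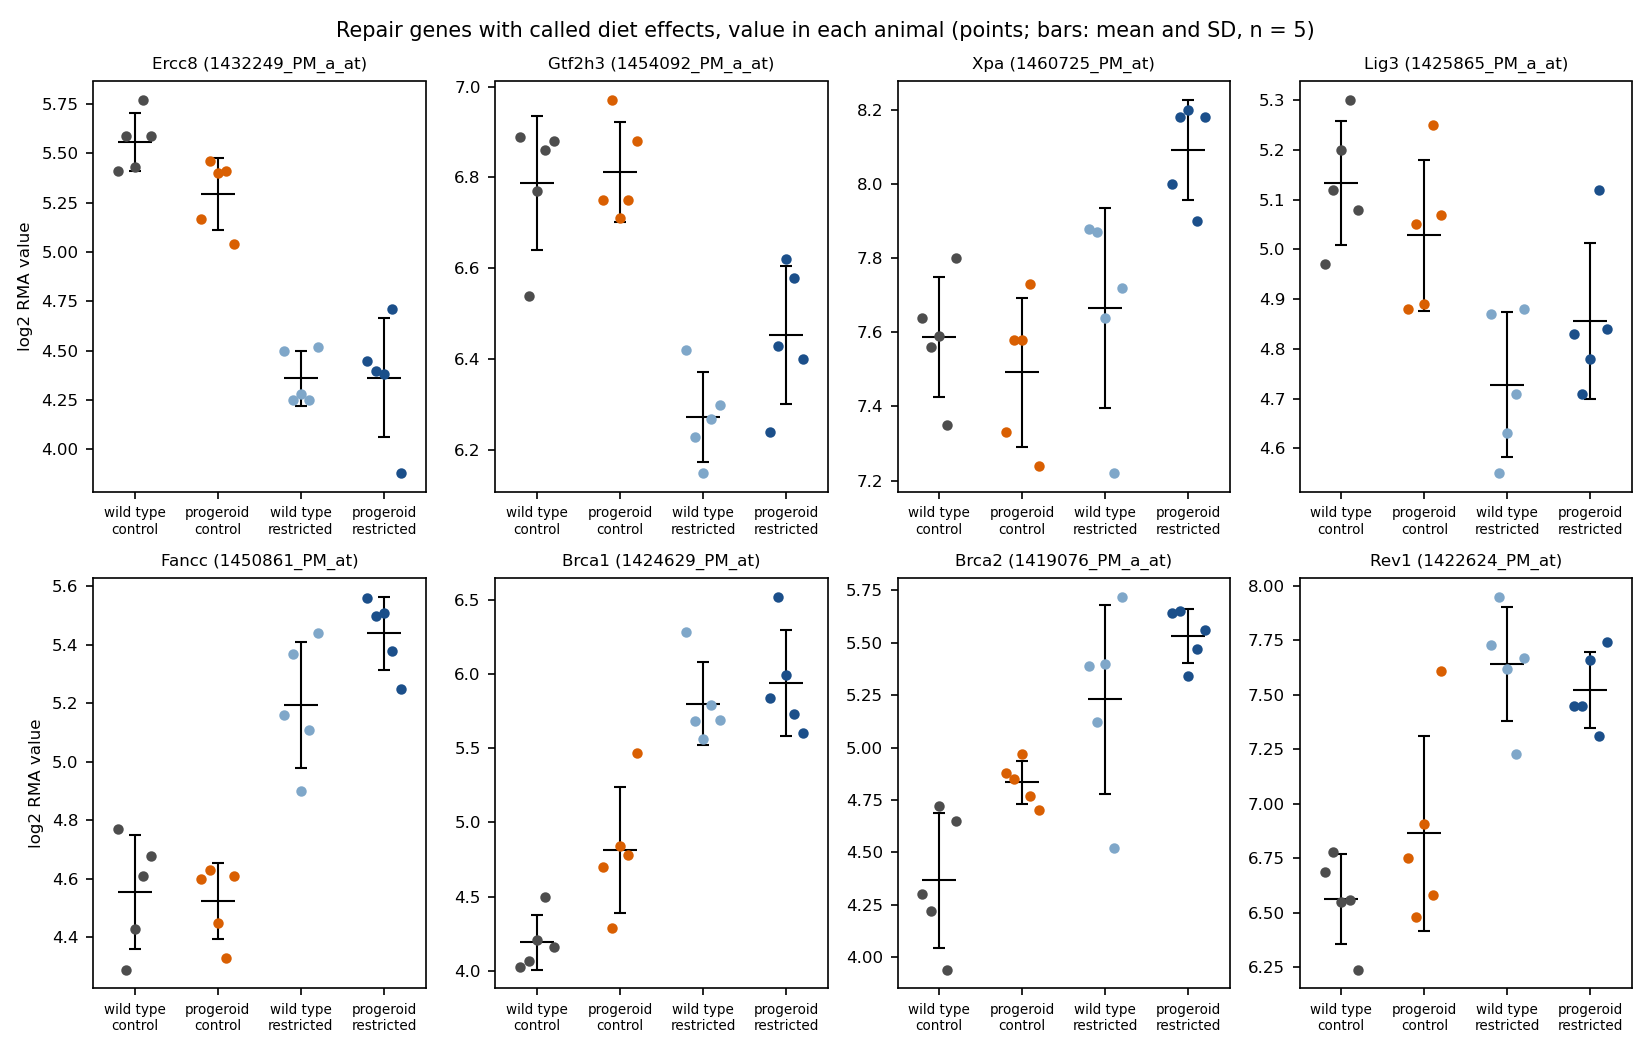
Log2 value of 8 repair probe sets with called diet effects in each of the 20 mice by group (one panel each, separate vertical axes that do not start at 0); points are animals, bars the mean and SD of 5 mice. Fancc, Brca1, Brca2 and Rev1 are higher and Ercc8 and Gtf2h3 lower on restricted diet in both genotypes, Xpa is higher in restricted progeroid mice, and Lig3 is lower in restricted wild type mice.

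Among damage sensors Ddb2, which binds ultraviolet lesions and hands them to XPC, rose in both genotypes on both of its probe sets. On 1436680_PM_s_at it went from 6.24 ± 0.22 to 6.71 ± 0.23 in wild type and from 6.32 ± 0.20 to 6.87 ± 0.10 in progeroid mice (SD, n = 5), or 0.46 (SE 0.12, adjusted p = 0.00714) and 0.55 (SE 0.12, adjusted p = 0.00459). The progeroid groups did not overlap and the wild type groups did. On 1425706_PM_a_at the rises were 0.45 (SE 0.15, adjusted p = 0.0452) and 0.55 (SE 0.15, adjusted p = 0.0297). Its partner Ddb1 was not called (0.25, SE 0.10, adjusted p = 0.0704, in wild type). Rad23b was called higher in wild type mice on 1456822_PM_at (0.64, SE 0.19, adjusted p = 0.0223), where progeroid mice gave -0.19 (SE 0.19, adjusted p = 0.641), and its brightest probe set, 1450903_PM_at, stood at 0.11 and 0.01.

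Xpa and Rpa2 were each called higher with restriction in progeroid mice on 1 probe set. The rises were 0.60 (SE 0.12, adjusted p = 0.00301) on 1460725_PM_at and 0.45 (SE 0.12, adjusted p = 0.0192) on 1416433_PM_at. In wild type mice the differences were 0.07 (SE 0.12, adjusted p = 0.731) and 0.25 (SE 0.12, adjusted p = 0.144). Not called in progeroid mice were 1437320_PM_s_at (0.09, adjusted p = 0.79) and 1456002_PM_at (-0.06, adjusted p = 0.75) of Xpa and 1454011_PM_a_at of Rpa2 (0.21, adjusted p = 0.384). For Xpa the values in each animal, given above, put all 5 restricted progeroid livers above all 5 progeroid controls. Rpa1 was not called by diet on either probe set.

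Among the nucleases, Ercc4 was called higher on 1441003_PM_at in both genotypes (0.38, SE 0.12, adjusted p = 0.0303, in wild type and 0.46, SE 0.12, adjusted p = 0.0191, in progeroid mice) and on 1440237_PM_at in wild type (0.44 (SE 0.12, adjusted p = 0.0163), with 0.39 (SE 0.12, adjusted p = 0.057) in progeroid mice). Ercc1, its partner, fell on 1 probe set in both, as given above. Mus81, a nuclease for stalled forks, fell in wild type mice from 5.63 ± 0.08 to 5.18 ± 0.31 (SD, n = 5; -0.45, SE 0.12, adjusted p = 0.00925), with -0.15 (SE 0.12, adjusted p = 0.522) in progeroid mice. Its partner Eme1 was dim and not called, and neither were Slx4 and Ercc5. Atr rose in wild type mice on 1427197_PM_at (0.53, SE 0.10, adjusted p = 9.89e-04) with no overlap between the diets, and stood at 0.30 (SE 0.10, adjusted p = 0.078) in progeroid mice.

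**Figure D4:**
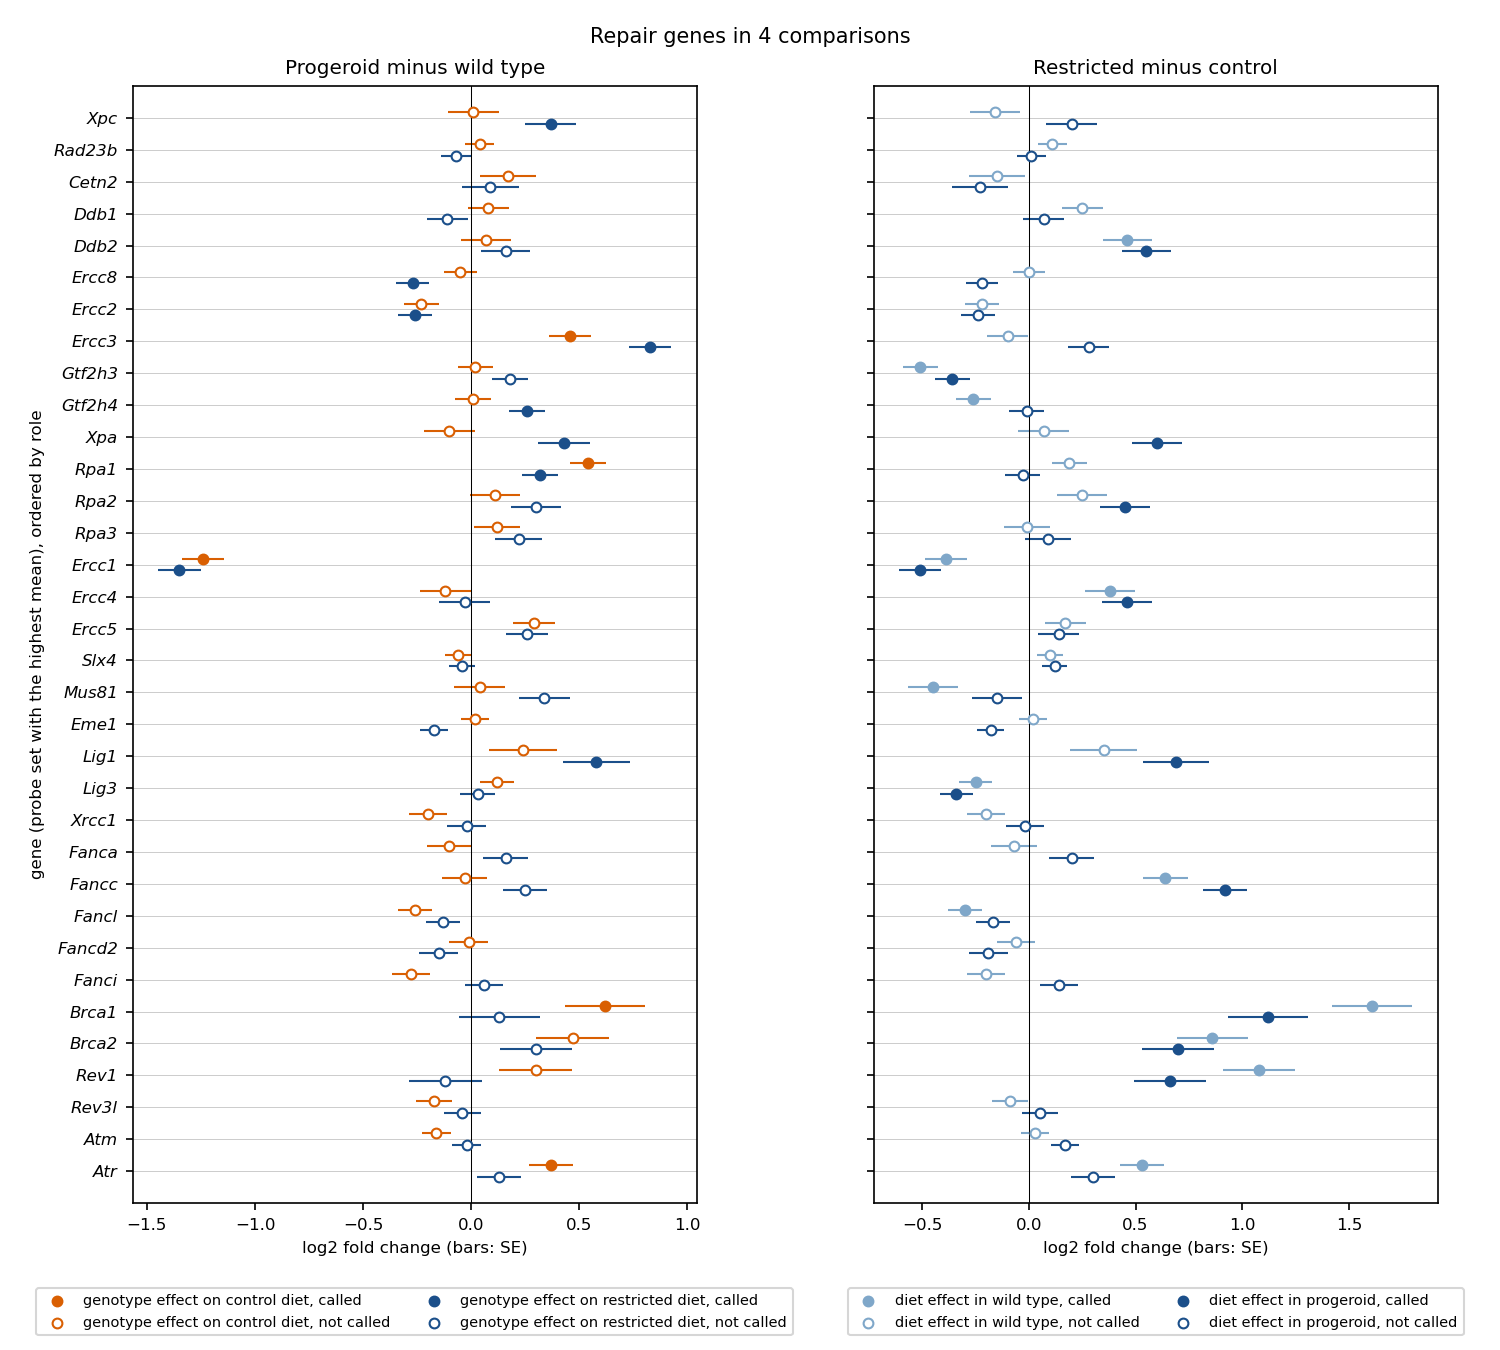
Log2 fold change with its SE for the probe set with the highest mean of each of the 34 genes, ordered by role from damage recognition to kinases; the left panel shows progeroid minus wild type on both diets and the right panel restricted minus control in both genotypes, with filled points for called differences. Ercc1 stands out on the left (-1.24 and -1.35) and Brca1 on the right (1.61 and 1.12).

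Some diet calls were also lost when 1 mouse was left out. In wild type mice the 10 higher calls became 6 without restricted animal 423. Rad23b lost its wild type call without animal 402, 422 or 423 (adjusted p up to 0.073), Ercc4 without animal 404 or 423 (adjusted p up to 0.0549) on 1440237_PM_at and without animal 401, 403, 404, 405, 423 or 424 (adjusted p up to 0.0951) on 1441003_PM_at, and Ddb2 on 1425706_PM_a_at without animal 401, 404, 405, 421, 422, 423 or 425 (adjusted p up to 0.12). Gtf2h4 lost its wild type call without animal 401, 403, 405, 422, 423, 424 or 425 (adjusted p up to 0.0967) and Lig3 on 1437198_PM_at without animal 402, 403, 405, 422 or 423 (adjusted p up to 0.0765). In progeroid mice Rpa2 lost its call without animal 326 or 362 (adjusted p up to 0.0597) and Ddb2 on 1425706_PM_a_at without animal 321, 323, 326, 366 or 369 (adjusted p up to 0.0877). Fitted with only the groups compared, the progeroid calls of Ercc4 on 1441003_PM_at (adjusted p = 0.0705) and Rev1 (adjusted p = 0.0538) were lost. So were the wild type calls of Ddb2 on 1425706_PM_a_at (adjusted p = 0.0532) and Gtf2h4 (adjusted p = 0.0759). With the Gapdh covariate these 2 wild type calls were lost as well (adjusted p = 0.0708 and, after rounding, 0.05). The variance trend with robust estimation lost the wild type calls of Gtf2h4 (adjusted p = 0.0608) and Lig3 on 1437198_PM_at (adjusted p = 0.0609). The means over the cycling-cell list were 3.48 to 3.60 in restricted and 3.74 to 4.07 in control wild type mice (exact two-sided permutation p = 0.00794, adjusted 0.0349), and over the DNA replication list 5.43 to 5.63 against 5.23 to 5.52 (p = 0.0952, adjusted 0.2). In progeroid mice the cycling-cell list gave 3.76 to 4.17 in restricted and 3.77 to 4.78 in control mice (exact p = 0.429, adjusted 0.608), and the erythroid list, with 3 of 5 genes measured, fell from a mean of 7.83 to 7.12 (exact p = 0.00794, adjusted 0.0349). The part of these in the diet differences of the repair genes was not tested.

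Whether restriction acted differently in the 2 genotypes was tested as the difference of the diet effects, and no repair probe set was called. In this comparison 0 of 69 were called higher, against 0.506% of all probe sets, and 0 lower, against 0.271%. By limma's unadjusted p under 0.05 there were 7 higher and 3 lower. How many of all probe sets passed that level was not counted. The 2 numbers are therefore not read as a result about the repair genes. The lowest adjusted p was that of Fancd2 on 1430916_PM_at (-0.30, SE 0.09, adjusted p = 0.145). Xpa followed, with a rise larger in progeroid mice by 0.53 (SE 0.17, adjusted p = 0.158) and a 95% interval of 0.18 to 0.88, and Rad23b on 1456822_PM_at, at -0.83 (SE 0.27, adjusted p = 0.169). For Brca1 the difference was -0.49 (SE 0.26, adjusted p = 0.442), with an interval of -1.04 to 0.06. A call in 1 genotype alone, as for Mus81, Fancl, Lig1 or Rpa2, is therefore not a tested difference between the genotypes.

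**Figure D5:**
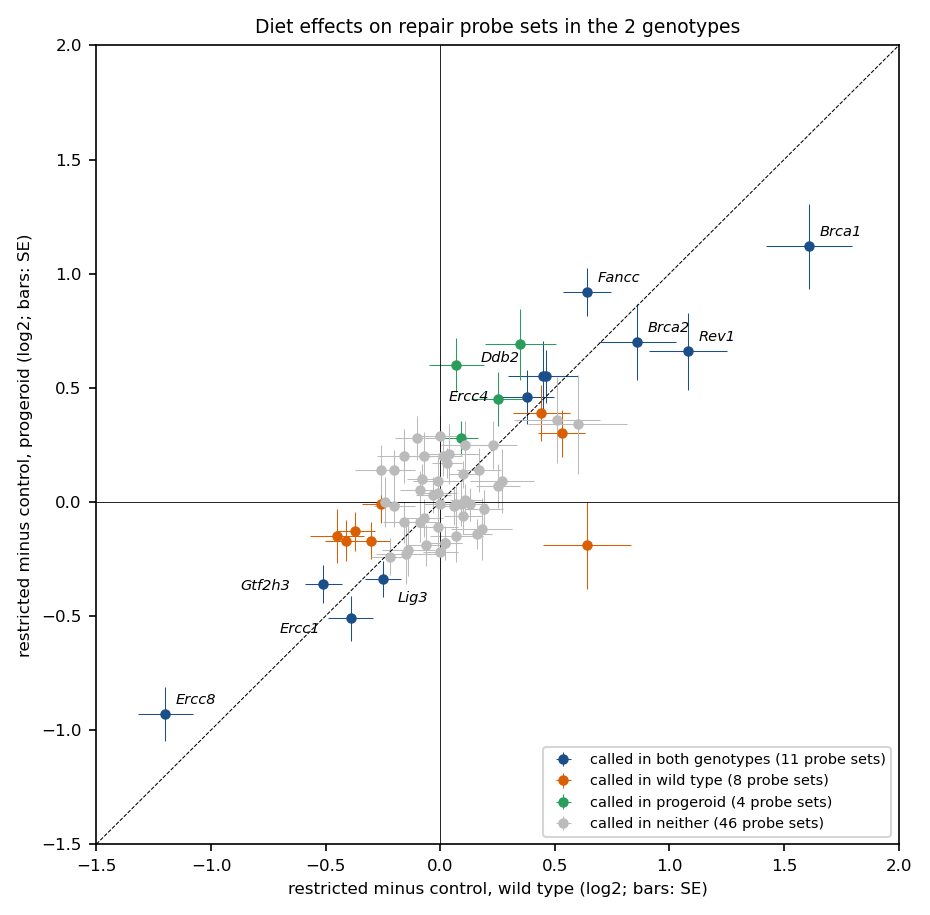
Restricted minus control in wild type (horizontal axis) against progeroid mice (vertical axis), log2 units, for the 69 repair probe sets; bars are the SE, the dashed line marks equal effects, and colours mark where the difference was called. The 11 probe sets called in both genotypes, named by gene, lie in the upper right and lower left; 8 were called in wild type alone, 4 in progeroid mice alone and 46 in neither.

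Of the 34 genes, 24 were called in at least 1 comparison, 14 of them by genotype and 18 by diet, with some called by both. These were 70.6%, 41.2% and 52.9% of the members, beside 40.9%, 23.3% and 31% of the 17097 genes with a single-symbol probe set. By probe set, which does not depend on how many a gene has, 49.3% of the members and 29.7% of all probe sets were called in at least 1 comparison. A mean of at least 5 was reached by 37 of the 69 and by 18034 of all 45037. The 10 without a call were Cetn2, Ddb1, Rpa3, Ercc5, Slx4, Eme1, Xrcc1, Fanca, Rev3l and Atm. Several of them were bright: Ddb1 lay at group means of 9.14 to 9.40, Rpa3 at 8.45 to 8.67 and Ercc5, the nuclease XPG, at 7.63 to 8.05. Ercc5 came near the threshold by genotype, at 0.29 (SE 0.10, adjusted p = 0.0766) on control and 0.26 (SE 0.10, adjusted p = 0.0971) on restricted diet. Cetn2, on its brighter probe set, lay at 8.91 to 9.23. Slx4 (4.35 to 4.50), Eme1 (3.31 to 3.50) and Fanca (4.11 to 4.31) were dim.

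Further genes of the same pathways were taken from lists of excision and crosslink repair genes. Of 28 further excision repair and gap-filling genes, 26 had a probe set, 58 in all. By genotype on control diet 4 of the 58 were called higher and 2 lower (6.9% and 3.45%, beside 3.98% and 2.96% of all probe sets). On restricted diet 16 were higher and 3 lower (27.6% and 5.17%, beside 7.07% and 4.42%). Among the higher calls on restricted diet were the clamp loader genes Rfc2 (0.36, SE 0.06, adjusted p = 5.16e-04 on 1417503_PM_at), Rfc3 (0.60, SE 0.12, adjusted p = 0.00164 on 1423700_PM_at) and Rfc4 (0.82, SE 0.21, adjusted p = 0.0134 on 1424321_PM_at). Of 27 further crosslink repair genes 22 had a probe set, 41 in all, with 1 higher and 0 lower on control diet (2.44% and 0%) and 3 higher and 0 lower on restricted diet (7.32% and 0%). Polk, a translesion polymerase, was higher in progeroid mice on both diets, by 0.76 (SE 0.12, adjusted p = 3.73e-04) and 0.43 (SE 0.12, adjusted p = 0.021).

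By diet, the further excision repair genes gave 12 higher and 9 lower calls in wild type mice (20.7% and 15.5%, beside 9.88% and 9.09% of all probe sets). In progeroid mice they gave 5 higher and 1 lower (8.62% and 1.72%, beside 4.81% and 3.44%). The crosslink repair genes gave 4 higher and 6 lower in wild type (9.76% and 14.6%), and 1 higher and 1 lower in progeroid mice (2.44% each). Dclre1a (SNM1A), a nuclease that digests past a crosslink, rose in both genotypes, by 1.19 (SE 0.26, adjusted p = 0.00241) in wild type and 1.22 (SE 0.26, adjusted p = 0.00466) in progeroid mice. Eme2, an alternative partner of MUS81, fell in both, by 0.52 (SE 0.12, adjusted p = 0.00558) and by 0.48 (SE 0.12, adjusted p = 0.0176). Probe sets of Cul4b, Pole4 and Xab2 were called in opposite directions in wild type mice, which was the case for no member in any comparison. In the difference of the diet effects 0 probe sets of either list were called.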

How the data were processed

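Liver RNA of 20 mice, 4 groups of 5, was measured on 1 Affymetrix array per animal. The authors deposited 1 table of log2 values for 45141 probe sets, summarised, per the submitters' processing notes, with RMA (version not given in the sources used here). This method corrects background and equalises the distributions of the arrays, so that a shift shared by most genes would not be seen; the medians of the arrays lay between 4.17 and 4.21. Precision is limited by signal over background in dim probe sets and by having 5 arrays per group. The 104 control probe sets were left out, and the other 45037 were fitted without a filter. Of these, 28898 had 1 gene symbol in the platform annotation, 551 several and 15588 none. No 2 arrays held identical values.

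Each probe set was fitted with 1 mean per group in limma 3.58.1 (R 4.3.3, lmFit and eBayes). The comparisons were progeroid minus wild type on each diet, restricted minus control in each genotype, and the progeroid diet effect minus the wild type diet effect. Adjustment followed Benjamini-Hochberg over the 45037 probe sets within each comparison, with a threshold of 0.05. The limma p-values set a difference between groups against the spread between animals within groups, moderated over all probe sets. Marker means (1 value per gene and animal) were compared by exact two-sided permutation over 252 assignments. Animals are listed in the order of their numbers: wild type control 401 to 405, wild type restricted 421 to 425, progeroid control 321, 323, 325, 326 and 327, progeroid restricted 362, 365, 366, 368 and 369. The fit was tested on simulated data.

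Values in every animal are given for all Ercc1 probe sets and for the 12 other called probe sets of members with the smallest adjusted p; other members appear by group means or ranges. The members and lists were chosen with earlier results of these data known, and no p-value was computed over a list of members. Alternatives were centred array medians, only the groups compared, a variance trend with robust estimation, the Gapdh 3' to 5' covariate, a mean of at least 5, 1 probe set per gene, and leaving out each animal. The position of probes on transcripts was not analysed here.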

Additional observations from a re-analysis of the deposited data

Results flagged for a closer look

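In 11 of 196 groups of 5 animals tested, over 49 repair probe sets, 1 animal lay far from the other 4 relative to the range of the group (above the 95% critical value of Dixon's ratio for 5). Chance gives about 1 such group in 20. Ercc3 was 8.12 in progeroid restricted animal 362, with the others at 7.62 to 7.72. Lig1 was 5.42 in wild type control animal 405 (others 4.92 to 5.04), and Lig3 on 1423419_PM_at was 6.53 in progeroid restricted animal 368 (others 6.14 to 6.22). Ercc4 stood apart on 3 probe sets in 3 different animals: 5.48 on 1440237_PM_at in wild type restricted animal 423 (others 5.01 to 5.13), 5.33 on 1441003_PM_at in progeroid restricted animal 366 (others 5.59 to 5.70) and 4.89 on 1448984_PM_at in progeroid control animal 321 (others 5.31 to 5.45). Ercc8 on 1427194_PM_a_at was 5.75 in wild type control animal 401 (others 5.42 to 5.50) and 5.30 in wild type restricted animal 422 (others 5.53 to 5.61). Cetn2 on 1438647_PM_x_at was 9.16 in progeroid restricted animal 369 (others 8.95 to 8.97), Eme1 was 3.45 in progeroid restricted animal 366 (others 3.26 to 3.30), and Fanca was 4.10 in progeroid restricted animal 365 (others 4.34 to 4.40).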

How the results depend on the processing

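No call reversed under any alternative run, and 34 of the 57 calls held under every alternative in which they were tested. The calls lost were 1 of 57 with array medians centred, 11 with only the groups compared, 6 with a variance trend and robust estimation, 7 with the Gapdh covariate, 0 of 42 at a mean of at least 5 and 0 of 39 with 1 probe set per gene. By genotype on control diet, the 6 higher calls became 3 with the Gapdh covariate and the 3 lower calls became 5 with centred medians. On restricted diet the 5 lower calls became 3 with 1 probe set per gene, at a mean of at least 5, with only the groups compared and with the variance trend. The first 2 of these settings test fewer probe sets; for the others the cause was not tested. Leaving out 1 animal at a time gave 4 to 6 higher and 2 to 4 lower calls by genotype on control diet, and 3 to 10 higher and 3 to 5 lower on restricted diet. By diet it gave 6 to 10 higher and 7 to 10 lower in wild type, 8 to 14 higher and 4 to 5 lower in progeroid mice, and 0 in the difference of the diet effects. Comparing only the groups concerned was not run for that difference, which needs all 4. Each animal was in 1 group, and the sample labels used here do not give its litter, so no paired analysis was made. Signal over background limits the dim probe sets: 41 of 69 members lay under the brightest nonspecific background probe set.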

Other observations

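Ercc2 lies 3 protein-coding genes from Ercc1 on the mouse chromosome, and the genes up to 10 places to either side were read by genotype, a set chosen after values were seen. On restricted diet Trappc6a, at 9 places, was higher in progeroid mice by 0.52 (SE 0.09, adjusted p = 4e-04) and Ercc2 was lower, as given above. Each neighbour was read only on its probe set with the highest mean. On these the other measured neighbours were not called on either diet, and Trappc6a stood at 0.25 (SE 0.09, adjusted p = 0.0855) on control diet. Several were dim, among them Rtn2 (mean 2.95), Ppm1n (3.16), Nkpd1 (3.23) and Fosb (3.36), where a change could be missed.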
